A study of Mus musculus with 12 samples.

Results

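The genes described are 10 members of the Bcl2 family, which decides whether a cell keeps or loses the integrity of its mitochondria. They were taken by name from the 15366 genes of the deposited table. They comprise 4 survival genes (Mcl1, Bcl2, Bcl2l1 and Bcl2a1b), 4 BH3-only genes (Bcl2l11, Bbc3, Pmaip1 and Bid) and 2 pore formers (Bax and Bak1). All 10 were in the table, and all 10 passed the filter on low values (a CPM above 1 in at least 3 libraries), as did 13046 genes in all.

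BAX and BAK1 form pores in the outer mitochondrial membrane, which releases cytochrome c and starts the caspases. Survival proteins such as MCL1, BCL2 and BCL-XL (from Bcl2l1) hold the pore formers and their activators in check. BH3-only proteins such as BIM (from Bcl2l11), PUMA (from Bbc3) and NOXA (from Pmaip1) bind the survival proteins and free the pore formers. Mouse blood stem cells are known to need Mcl1, and both MCL1 protein and its mRNA turn over quickly.

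RNA came from the LSK fraction of bone marrow of untreated C57BL/6 mice, sorted for Kit and Sca-1 without lineage markers. This small fraction includes the blood stem cells and early multipotent progenitors. The 12 libraries formed 4 groups of 3. Double lesion mice carried human KDM6B driven by Vav sequences, Vav Cre and 2 floxed Tet2 alleles. KDM6B OE mice carried the Vav human KDM6B transgene, and their label names no Cre. Tet2 KO mice carried Vav Cre and 2 floxed Tet2 alleles, and the control mice carried Vav Cre. Vav sequences act throughout the blood lineage, so neither lesion was limited to LSK cells. KDM6B removes a repressive methyl mark from histone H3, and TET2 oxidises methylated cytosine in DNA. The labels used here give no age. They also do not state whether the 3 libraries per group are from separate mice, so each p-value reflects the spread between libraries, part of which may be technical.

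The libraries held 21935022 to 26263370 reads on listed genes. All 9 genes of the LSK marker list were present in every library, with a summed level of 2087 CPM in the library Vav Cre 2 and 2632 to 3665 CPM in the other 11. Tet2 averaged 40.1% of the Vav Cre level in the double lesion and 32.7% in Tet2 KO. The human transgene has no row of its own in the table. Whether its reads were counted on the mouse Kdm6b row was not tested. Mouse Kdm6b was called higher with the transgene (0.60 ± 0.15 on the log2 scale, limma adjusted p = 0.0465, 6 libraries against 6), a call that held under 10 of 22 alternatives. In a fit that weights libraries by how closely they follow their group, Vav Cre 2 and Vav Cre 3 had the lowest weights, 0.329 and 0.299.

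Promoter sequence is given for the 2 members called higher in the double lesion, Mcl1 and Bcl2l11, from RefSeq (GRCm38.p6), as 300 bases from 250 before to 50 after the annotated start. Capitals mark matches to letter strings of factor families, searched on both strands. Mcl1 is shown at chr3:95658471-95658770 on the plus strand, and Bcl2l11 at its first of 2 annotated starts, chr2:128125788-128126087, also on the plus strand.
Mcl1: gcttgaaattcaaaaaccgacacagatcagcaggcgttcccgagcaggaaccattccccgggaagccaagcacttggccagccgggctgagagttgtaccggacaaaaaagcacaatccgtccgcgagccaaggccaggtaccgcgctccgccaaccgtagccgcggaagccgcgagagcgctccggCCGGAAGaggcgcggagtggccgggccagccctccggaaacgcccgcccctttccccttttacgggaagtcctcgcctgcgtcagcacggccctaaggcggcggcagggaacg
Bcl2l11: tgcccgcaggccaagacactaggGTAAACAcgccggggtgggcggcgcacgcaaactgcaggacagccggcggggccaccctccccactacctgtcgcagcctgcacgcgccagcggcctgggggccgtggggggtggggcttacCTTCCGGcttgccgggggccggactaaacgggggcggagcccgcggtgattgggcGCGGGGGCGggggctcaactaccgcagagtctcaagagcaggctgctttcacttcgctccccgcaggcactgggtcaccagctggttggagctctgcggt

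The Mcl1 window held 1 match, to the ETS string CCGGAAG, at -63 from the start; 8.86% of 32851 promoter windows hold that string. The Bcl2l11 window held the FOXO string TGTTTAC on the reverse strand at -227 (3.65% of windows), the ETS string on the reverse strand at -105, and the EGR string GCGNGGGCG at -50 (5.55%). No match overlapped another. The AP-1 string TGANTCA (7.81% of windows), the CRE string TGACGTCA (1.79%), the STAT string TTCNNNGAA (8.3%) and a CArG box (1.63%) had no match in either window. Over the 14 windows of the 9 members with an entry, the AP-1 string was found in Bcl2a1b alone, at -164. FOXO strings were found in Bcl2l11 and in the second window of Bbc3, which encodes PUMA. A match describes letters in the window and shows no binding.

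Bcl2a1b is 1 of several near-identical mouse copies of the gene for the survival protein A1, and the counting could split reads between them. Its coding sequence of 516 bases differs from Bcl2a1a at 11 positions and from Bcl2a1d at 6 (GENCODE M21 transcripts), and 57.6% of its 50-base stretches also occur in another copy. The first 60 coding bases are shown because 6 positions there separate the copies, marked by capitals.
Bcl2a1b: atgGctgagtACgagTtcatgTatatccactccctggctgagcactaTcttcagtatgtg
Bcl2a1a: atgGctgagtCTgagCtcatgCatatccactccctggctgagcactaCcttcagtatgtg
Bcl2a1d: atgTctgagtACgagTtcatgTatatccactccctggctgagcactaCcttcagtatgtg

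Values below are CPM, the read count of a gene over the scaled library size, as the authors deposited it. Differences are those of log2(CPM + 1), a scale that shrinks the changes of genes with low values, and are given ± SE. A gene was called at a limma adjusted p under 0.05 over all 13046 genes tested. In bulk RNA, fewer cells of a type and less RNA per cell cannot be told apart.

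Mcl1 was the member that separated libraries with and without the transgene. It stood at 324, 345 and 309 CPM in the double lesion and at 336, 314 and 292 CPM in KDM6B OE, against 180, 183 and 214 CPM in Tet2 KO and 156, 172 and 205 CPM in Vav Cre. Every library with the transgene lay above every library without it, with 3667 to 9136 reads behind each value. Mcl1 (chromosome 3, 95658788 to 95663176, plus strand) rose in the double lesion by 0.88 ± 0.11 over Vav Cre (adjusted p = 0.00222, n = 3 and 3 by limma), a CPM ratio of 1.84. It rose in KDM6B OE by 0.83 ± 0.11 over Vav Cre (limma adjusted p = 0.00495), a ratio of 1.77. It also rose in the double lesion over Tet2 KO, by 0.76 ± 0.11 (limma adjusted p = 0.0116), a ratio of 1.69.

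Tet2 deletion was not accompanied by a called difference in Mcl1. The difference of Tet2 KO from Vav Cre was 0.12 ± 0.11 (95% interval -0.13 to 0.37, limma adjusted p = 0.665). The double lesion differed from KDM6B OE by 0.05 ± 0.11 (95% interval -0.19 to 0.30, limma adjusted p = 0.985). Over both Tet2 backgrounds, Mcl1 was 0.79 ± 0.08 higher with the transgene (limma adjusted p = 0.000135, 6 libraries against 6), the fourteenth smallest p of all genes tested. In KDM6B OE against Vav Cre the absence of Cre in the label and the transgene cannot be told apart. The difference in labelled Cre also enters the double lesion against KDM6B OE and the interaction of the lesions. It enters in part the effects of the transgene over both Tet2 backgrounds and of Tet2 deletion over both transgene backgrounds. In none of these can it be separated from the lesions. In the double lesion against Tet2 KO both groups carry Vav Cre.

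**Figure D1:**
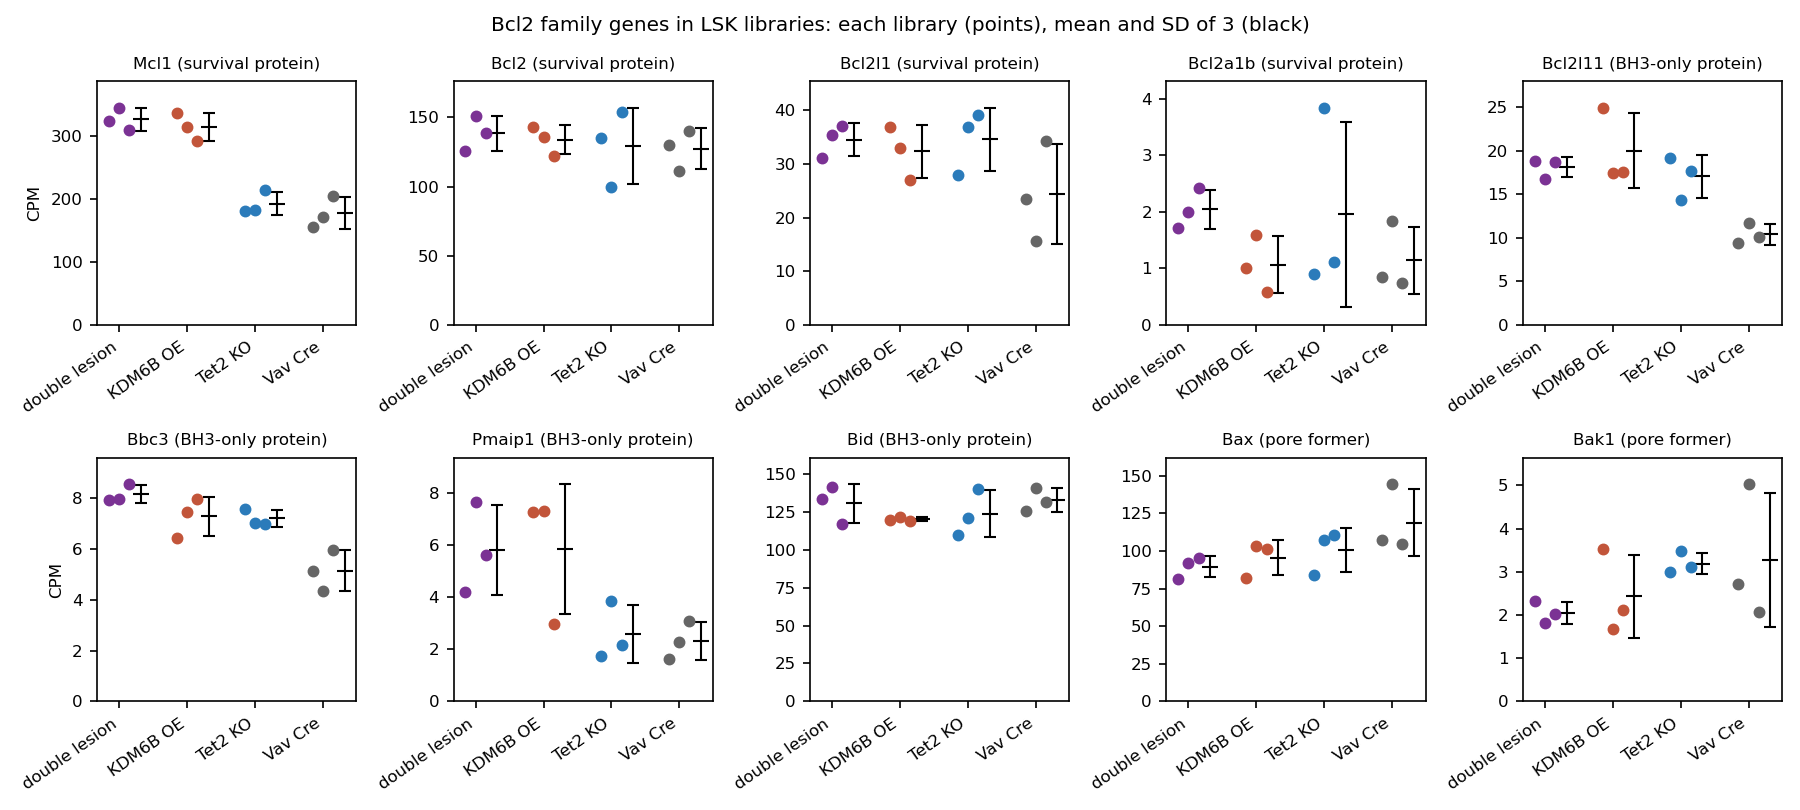
CPM of each of the 10 members on a linear axis from 0, by group from double lesion to Vav Cre; points are libraries, and black bars are the mean and SD of 3. Mcl1 lies between 292 and 345 CPM in the 6 libraries with the transgene and between 156 and 214 CPM in the 6 without it, while Bcl2 overlaps between all groups.

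The other survival genes did not follow Mcl1. Bcl2, the founding survival gene of the family (chromosome 1, 106538178 to 106714274, minus strand), had 125, 151 and 138 CPM in the double lesion, 143, 136 and 122 CPM in KDM6B OE, 135, 99.6 and 154 CPM in Tet2 KO and 130, 111 and 140 CPM in Vav Cre. All 4 groups overlapped, and the double lesion differed from Vav Cre by 0.12 ± 0.15 (95% interval -0.20 to 0.44, limma adjusted p = 0.609). An annotated gene on the opposite strand, D630008O14Rik, overlaps 558 exonic bases of Bcl2, and the library kit does not mark strand.

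Bcl2l1 (chromosome 2, 152780668 to 152831728, minus strand) had 31.1, 35.4 and 37.1 CPM in the double lesion, 36.9, 33.1 and 27.1 CPM in KDM6B OE, 27.9, 36.9 and 39.0 CPM in Tet2 KO and 23.4, 15.6 and 34.2 CPM in Vav Cre. The Vav Cre libraries spread most, and their highest value lay inside the range of each other group. The differences from Vav Cre were 0.55 ± 0.23 in the double lesion (limma adjusted p = 0.127), 0.45 ± 0.23 in KDM6B OE (0.285) and 0.54 ± 0.23 in Tet2 KO (0.344). No comparison called Bcl2l1.

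Bcl2a1b was low, at 15 to 83 reads, and 401 of its 817 exonic bases overlap the same-strand gene Gm29094, so its level is uncertain. It had 1.72, 2.0 and 2.41 CPM in the double lesion, 1.013, 1.60 and 0.585 CPM in KDM6B OE, 0.900, 3.84 and 1.11 CPM in Tet2 KO and 0.849, 1.83 and 0.747 CPM in Vav Cre. The highest value was that of Tet2 KO 2, the library with the highest sum of the 6 B cell markers (182 CPM, against 64.0 to 108 CPM in the other 11). The B cell factor Pax5 was at 0 in 9 libraries, and the part of B cells in this value was not tested. The largest difference was 0.58 ± 0.36, in the double lesion over KDM6B OE, where the groups did not overlap (limma adjusted p = 0.906). The copy Bcl2a1a had 0 to 18 reads and Bcl2a1d had 5 to 25 reads in a library.

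Among the survival genes, Mcl1 made up a larger share with the transgene. Levels were divided by the merged length of all annotated exons, so that genes can be set side by side. Mcl1 then held 79.1% ± 1.59 of the summed level of the 4 genes in the double lesion and 80.0% ± 0.906 in KDM6B OE. It held 70.0% ± 0.640 in Tet2 KO and 71.5% ± 2.37 in Vav Cre (SD, n = 3 each). The lowest library with the transgene was at 77.6% and the highest without it at 73.8%. The share of Bcl2 was 12.5% and 12.7% in the groups with the transgene, against 17.6% in Tet2 KO and 19.3% in Vav Cre. These shares restate the values of Mcl1 and carry no test of their own.

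**Figure D2:**
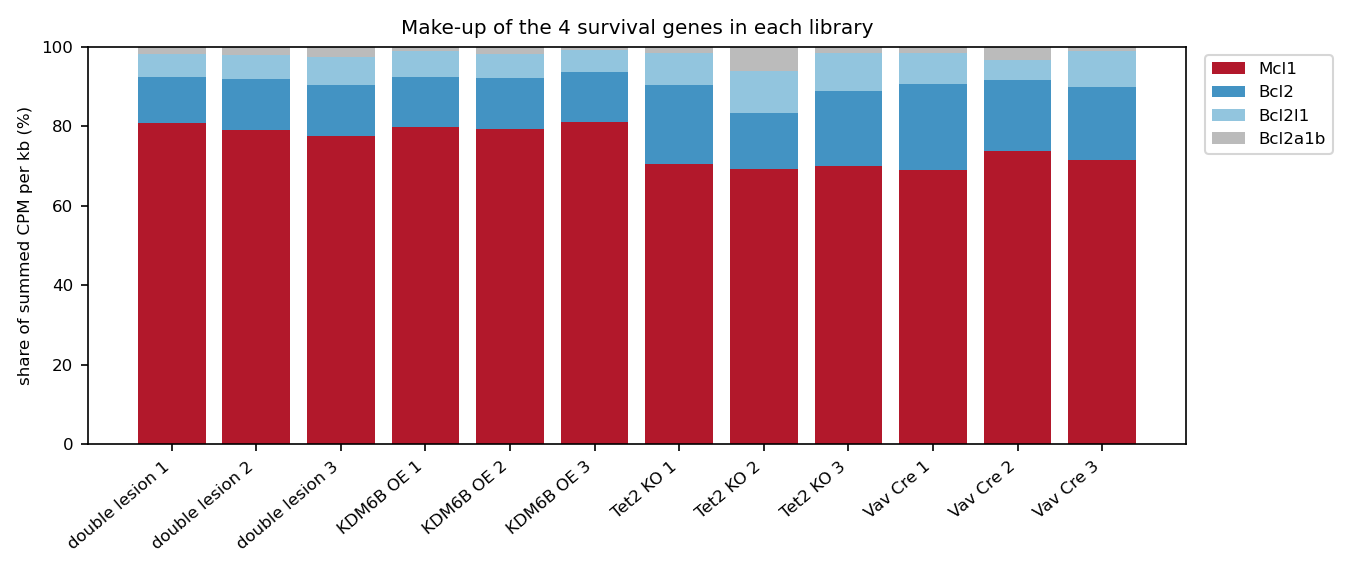
Share (%) of each survival gene in the summed CPM per kb of Mcl1, Bcl2, Bcl2l1 and Bcl2a1b, 1 stacked bar per library, from double lesion to Vav Cre. Mcl1 takes 77.6% to 81.0% in the 6 libraries with the transgene and 69.1% to 73.8% in the 6 without it.

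Of the BH3-only genes, Bcl2l11 had its lowest values in Vav Cre. BIM, its product, binds all survival proteins and can activate BAX and BAK1. Bcl2l11 (chromosome 2, 128126038 to 128162547, plus strand) had 18.8, 16.8 and 18.7 CPM in the double lesion, 24.97, 17.5 and 17.6 CPM in KDM6B OE, 19.1, 14.4 and 17.7 CPM in Tet2 KO and 9.42, 11.8 and 10.1 CPM in Vav Cre. All 9 libraries with a lesion lay above all 3 Vav Cre libraries, with 222 to 567 reads behind each value.

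Bcl2l11 rose in the double lesion by 0.75 ± 0.19 over Vav Cre (95% interval 0.34 to 1.15, limma adjusted p = 0.023), a CPM ratio of 1.74. The call ended without the library Vav Cre 1 and without any one of the double lesion libraries (limma adjusted p up to 0.0983 over the alternatives). In KDM6B OE the difference from Vav Cre was 0.87 ± 0.19 (limma adjusted p = 0.0569), and in Tet2 KO it was 0.66 ± 0.19 (limma adjusted p = 0.234), neither of them called. With the transgene over both Tet2 backgrounds it was 0.48 ± 0.13 (limma adjusted p = 0.0567), also not called. The 3 comparisons with Vav Cre share its libraries, so their common direction is not repeated evidence. Against the single lesions, Bcl2l11 in the double lesion differed by -0.12 ± 0.19 from KDM6B OE and by 0.09 ± 0.19 from Tet2 KO, with ranges that overlapped.

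For Bcl2l11 the interaction of the lesions (the double lesion and Vav Cre together, less the sum of the single lesions) was -0.78 ± 0.27, with a limma adjusted p of 0.999 and an unadjusted p of 0.0115. No member passed in this comparison, nor did any of the 13046 genes (0%, by limma; 578 genes, 4.43%, had an unadjusted p under 0.05, edgeR called 0 and DESeq2 5). For Mcl1 the interaction was -0.07 ± 0.16, with a 95% interval of -0.41 to 0.28.

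Bbc3, a p53 target in many tissues, was also lowest in Vav Cre. It had 7.95, 7.96 and 8.56 CPM in the double lesion, 6.43, 7.46 and 7.96 CPM in KDM6B OE, 7.59, 7.04 and 6.998 CPM in Tet2 KO and 5.14, 4.35 and 5.97 CPM in Vav Cre. Each lesion group lay above Vav Cre without overlap. The differences were 0.58 ± 0.19 in the double lesion (limma adjusted p = 0.0576), 0.43 ± 0.19 in KDM6B OE (0.216) and 0.42 ± 0.19 in Tet2 KO (0.363), and none was called. Bbc3 lies on chromosome 7, 16308393 to 16318205, plus strand.

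Pmaip1, whose product NOXA binds MCL1 and A1 but not BCL2, moved with the transgene. It had 4.22, 7.66 and 5.64 CPM in the double lesion and 7.27, 7.33 and 2.97 CPM in KDM6B OE, against 1.76, 3.84 and 2.19 CPM in Tet2 KO and 1.61, 2.29 and 3.08 CPM in Vav Cre. The double lesion lay above both groups without the transgene, and the library KDM6B OE 3 lay among them. Pmaip1 was 0.96 ± 0.24 higher with the transgene over both Tet2 backgrounds (limma adjusted p = 0.0442, 6 libraries against 6), a CPM ratio of 2.38. The call ended under 10 of 22 alternatives, among them leaving out any double lesion library, KDM6B OE 1, KDM6B OE 2, Tet2 KO 1, Tet2 KO 3, Vav Cre 1 and Vav Cre 2 in turn. Its differences from Vav Cre were 1.03 ± 0.34 in the double lesion (limma adjusted p = 0.0553) and 0.99 ± 0.34 in KDM6B OE (0.14). In Tet2 KO it was 0.09 ± 0.34, with a 95% interval of -0.63 to 0.82. Only 38 to 203 reads stood behind each Pmaip1 value.

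Bid, which links death receptors to mitochondria once caspase 8 cleaves its protein, was not called in any comparison. It had 134, 142 and 117 CPM in the double lesion, 120, 122 and 119 CPM in KDM6B OE, 110, 121 and 140 CPM in Tet2 KO and 125, 141 and 131 CPM in Vav Cre. KDM6B OE lay just below Vav Cre without overlap, at -0.14 ± 0.11 (limma adjusted p = 0.487). The other groups overlapped with Vav Cre. Bid (chromosome 6, 120891930 to 120916853, minus strand) shares 628 exonic bases with the opposite-strand gene Bcl2l13, another family member.

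The pore formers had lower means in the double lesion than in Vav Cre, without a call. Bax (chromosome 7, 45461697 to 45466898, minus strand) had 81.5, 91.8 and 95.5 CPM in the double lesion, 82.2, 103 and 101 CPM in KDM6B OE, 83.7, 107 and 111 CPM in Tet2 KO and 107, 144 and 104 CPM in Vav Cre. The double lesion and KDM6B OE both lay below Vav Cre without overlap, KDM6B OE by a narrow margin. The differences were -0.39 ± 0.15 in the double lesion (95% interval -0.71 to -0.06, limma adjusted p = 0.0939) and -0.30 ± 0.15 in KDM6B OE (0.265). The same-strand gene Gm45808 overlaps 192 exonic bases of Bax.

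Bak1 was at 41 to 110 reads. It had 2.31, 1.81 and 2.02 CPM in the double lesion, 3.52, 1.68 and 2.11 CPM in KDM6B OE, 3.001, 3.47 and 3.10 CPM in Tet2 KO and 2.72, 5.03 and 2.06 CPM in Vav Cre. The double lesion lay below Tet2 KO without overlap (-0.46 ± 0.29, limma adjusted p = 0.572). Both pore formers had their highest value, and Bcl2l1 its lowest, in Vav Cre 2. That library also had the highest sum of the 4 measured erythroid markers (189 CPM, against 39.2 to 108 CPM in the other 11). The part of erythroid cells in these values was not tested. Bak1 (chromosome 17, 27019810 to 27029009, minus strand) overlaps the opposite-strand gene Ggnbp1.

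**Figure D3:**
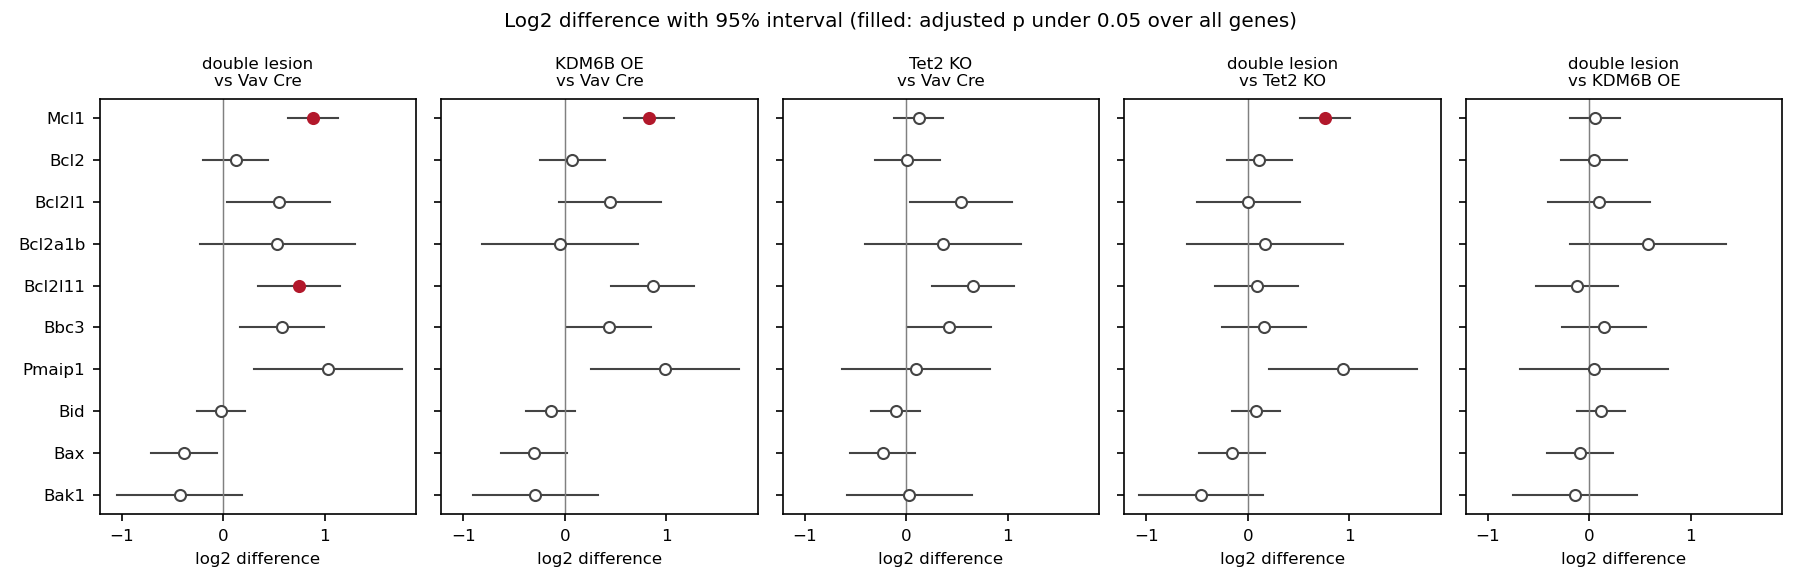
Log2 difference (log2(CPM + 1) scale) of each member in the 5 comparisons between groups, with its 95% interval; filled points have a limma adjusted p under 0.05 over all genes. Mcl1 is filled in the double lesion against Vav Cre, in KDM6B OE against Vav Cre and in the double lesion against Tet2 KO; Bcl2l11 is filled in the double lesion against Vav Cre, and no other point is filled.

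Counted over the members, limma called 2 of 10 higher and 0 lower in the double lesion against Vav Cre, where it called 14.9% of all genes tested (7.34% higher and 7.58% lower). The share of members was close to that of all genes. Without the library Vav Cre 3, 6 members were called (Bcl2l1, Bbc3 and Pmaip1 also higher, Bax lower) among 27.5% of all genes, and 1 (Mcl1) was called without Vav Cre 1 or without any one of the double lesion libraries. The groups did not overlap for 5 members (Mcl1, Bcl2l11, Bbc3 and Pmaip1 higher, Bax lower), against 32.8% of all genes. The median difference of the members was 0.54, against 0.05 over all genes.

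In KDM6B OE against Vav Cre, 1 of 10 members was called (Mcl1, higher), against 0.598% of all genes (0.521% higher). The groups did not overlap for 5 members (22.6% of all genes), with Mcl1, Bcl2l11 and Bbc3 higher and Bax and Bid lower. Without Vav Cre 3, 3 members were called in KDM6B OE (Mcl1, Bcl2l11 and Bcl2l1), among 14.8% of all genes. In Tet2 KO against Vav Cre no member was called by limma, 3 had an unadjusted p under 0.05 (13.5% of all genes), and 4 genes were called in all (0.0307%). With the replicate number as a block over all 12 libraries, no member and 1 gene were called in Tet2 KO against Vav Cre. The main fit left the replicate number out, and a paired fit of these 2 groups alone was not run. Bcl2l11 and Bbc3 did not overlap there, both higher (12.6% of all genes did not overlap in either direction).

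In the double lesion against Tet2 KO, 1 of 10 members was called (Mcl1, higher), against 0.215% of all genes (0.192% higher). None was called without any one of the double lesion libraries, Tet2 KO 1 or Tet2 KO 2 (Mcl1 at a limma adjusted p of up to 0.0948). Groups did not overlap for 4 members (21.6% of all genes), with Mcl1, Pmaip1 and Bbc3 higher and Bak1 lower. In the double lesion against KDM6B OE no member was called, nor was any gene by limma (0%; 771 genes, 5.91%, had an unadjusted p under 0.05, none of them a member, edgeR called 0 and DESeq2 20). Bcl2a1b alone did not overlap there (18.7% of all genes). With the transgene over both Tet2 backgrounds, 2 of 10 members were called, both higher, against 4.35% of all genes (2.52% higher). Of the members, Mcl1 alone had 6 libraries above the other 6 (2.23% of all genes did not overlap in either direction). With Tet2 deletion over both transgene backgrounds no member was called by limma, had an unadjusted p under 0.05 (14.7% of all genes) or separated the libraries without overlap (0.675%), and 0.207% of all genes were called. The largest member difference there was 0.47 ± 0.25 (Bcl2a1b, limma adjusted p = 0.402).

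Divided by length, the members covered a wide range of levels. The length is that of all annotated exons of a gene merged, which can exceed that of the transcripts present. The order of genes and the ratios between them depend on it. Over the 12 libraries the mean was 73.9 CPM per kb for Mcl1, 64.1 for Bax, 35.7 for Bid, 14.4 for Bcl2 and 6.86 for Bcl2l1. Bbc3 followed at 3.27 CPM per kb, Bcl2l11 at 2.04, Bcl2a1b at 1.90, Pmaip1 at 1.52 and Bak1 at 1.14. Mcl1 stood above Bax in the double lesion (95.4 against 56.8 CPM per kb) and in KDM6B OE (91.9 against 60.6). Bax stood above Mcl1 in Tet2 KO (63.7 against 56.3) and in Vav Cre (75.3 against 51.9). Of the pore formers, Bax exceeded Bak1 in every group, by a ratio that averaged 67.8 in the double lesion, 67.6 in KDM6B OE, 48.0 in Tet2 KO and 60.4 in Vav Cre.

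The ratio of Mcl1 to Bcl2l11 set a survival gene beside the BH3-only gene whose product it binds. Per kb it averaged 42.5 in the double lesion (38.9 to 48.3), 37.6 in KDM6B OE (31.6 to 42.2) and 26.8 in Tet2 KO (22.1 to 29.9). In Vav Cre it averaged 40.3 (34.3 to 47.8). All 3 Tet2 KO libraries lay below the other 9. In the groups with the transgene both genes had higher means than in Vav Cre, whereas in Tet2 KO the mean of Bcl2l11 was 1.64 times that in Vav Cre and the 95% interval of Mcl1 spanned 0. The ratio of Mcl1 to Bcl2 averaged 6.33 in the double lesion and 6.29 in KDM6B OE, against 4.07 in Tet2 KO and 3.75 in Vav Cre, with all 6 libraries with the transgene above the other 6. Mcl1 over Bcl2l1 averaged 12.75 in the double lesion, 13.1 in KDM6B OE, 7.56 in Tet2 KO and 10.6 in Vav Cre. For this ratio Vav Cre 2, at 14.78, lay above every library with the transgene (11.18 to 14.47). These ratios are descriptions made from the values above.

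The genes most like Mcl1 over the 12 libraries were Sik1 (Pearson r = 0.96), the long non-coding RNA Neat1 (0.95) and the MAP kinase phosphatase gene Dusp1 (0.95). Within groups, after taking out the group means, r was 0.74, 0.57 and 0.39. For Bcl2l11 they were the integrin gene Itgav (0.94), Tbc1d12 and Taz (both 0.93). For Pmaip1 they were Fcnb, Nrp and the early transcription factor Egr2 (each 0.93, and 0.81, 0.88 and 0.85 within groups), of which Egr2 was at most 1.37 CPM. The libraries share the group structure and its depth, so these values describe likeness and no more.

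Immediate early genes, which are transcribed within minutes of a stimulus and also respond to cell handling, moved along with Mcl1 and Pmaip1. Of 19 such genes tested, 16 were called higher in the double lesion over Vav Cre, where 7.34% of all genes were. Called higher were 14 in KDM6B OE over Vav Cre (0.521% of all genes) and 11 in the double lesion over Tet2 KO (0.192%). None was called in Tet2 KO against Vav Cre or in the double lesion against KDM6B OE, and none was called lower in a comparison. With Tet2 deletion over both transgene backgrounds 1 was called, Ier5 (0.52 on the log2 scale, limma adjusted p = 0.0361), a call that held under 12 of 22 alternatives. There 0.207% of all genes were called. With the transgene over both Tet2 backgrounds 18 were called higher (2.52% of all genes), with a median difference of 1.93 against 0.02 over all genes. Their mean log2(CPM + 1) ran from 6.77 to 7.40 in the double lesion and from 6.86 to 7.35 in KDM6B OE, against 4.69 to 5.52 in Tet2 KO and 4.55 to 5.25 in Vav Cre. The part of this early response, or of cell handling, in the levels of Mcl1 and Pmaip1 was not tested.

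**Figure D4:**
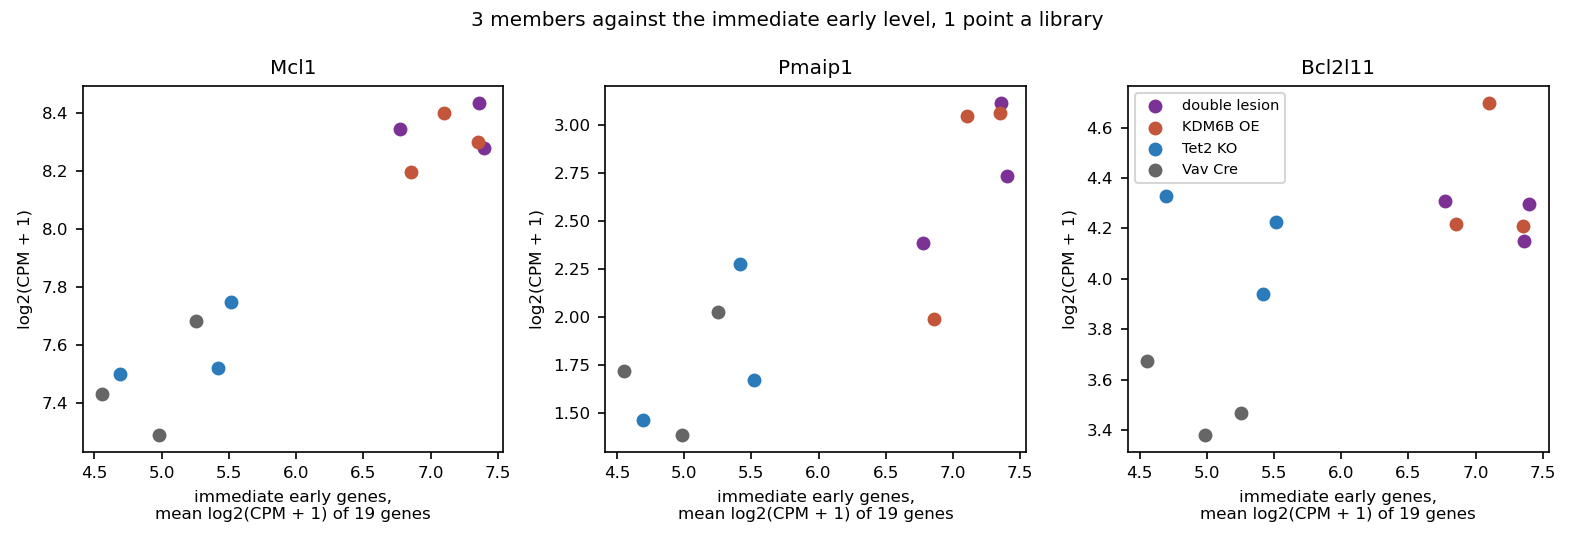
log2(CPM + 1) of Mcl1, Pmaip1 and Bcl2l11 (vertical axes) against the mean log2(CPM + 1) of 19 immediate early genes (horizontal axis), 1 point per library, coloured by group. Libraries with the transgene lie at 6.77 and above on the horizontal axis and those without it at 5.52 and below; Bcl2l11 in Tet2 KO is above Vav Cre at a similar early gene level.

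Of the marker lists of other blood cells, those of dendritic cells and T cells separated double lesion libraries from those of Tet2 KO and Vav Cre. The summed B cell, erythroid, neutrophil, monocyte and macrophage, and megakaryocyte markers of the double lesion overlapped those of both groups. Some of these sums follow mainly 1 gene. Over all libraries Mpo ran from 1720 to 6199 CPM in the neutrophil list, where S100a8 was at most 11.1 CPM. Cd79b ran from 56.6 to 110 CPM in the B cell list and Klf1 from 19.4 to 142 CPM in the erythroid list. The summed level of the 4 dendritic cell markers was 11.01 to 17.6 CPM in the double lesion, 5.96 to 9.90 CPM in Tet2 KO and 3.20 to 4.54 CPM in Vav Cre. That of the 5 T cell markers was 6.94 to 8.21 CPM in the double lesion, 2.94 to 5.06 CPM in Tet2 KO and 2.08 to 3.43 CPM in Vav Cre. The 5 mast cell, basophil and eosinophil markers summed to 658 to 4136 CPM in the double lesion, 296 to 1023 CPM in Tet2 KO and 105 to 811 CPM in Vav Cre, which overlapped. In KDM6B OE the dendritic markers summed to 2.61 to 5.02 CPM and the T cell markers to 1.59 to 6.27 CPM. The mast cell, basophil and eosinophil markers summed there to 199 to 844 CPM. The part of other blood cells in the calls of Mcl1 and Bcl2l11 was not tested.

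Other genes of the same pathway were read from 7 further lists, all chosen with earlier results of these data known. Of the other Bcl2 family members, 9 of 16 listed could be tested, and 1 was called in the double lesion against Vav Cre, where 14.9% of all genes were called. That was Bad, a BH3-only gene whose product is held off by survival signalling, at 35.2 ± 2.18 CPM in the double lesion and 46.1 ± 1.16 CPM in Vav Cre (SD, n = 3 each). It fell by 0.38 on the log2 scale (SE 0.12, limma adjusted p = 0.0476). The median of these 9 was -0.23 in that comparison. No other comparison called one of them.

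Downstream of the mitochondria, none of the 14 apoptosome and caspase genes was called in any comparison by the main limma fit. The smallest adjusted p was that of the initiator Casp9 in the double lesion against Vav Cre (0.65 ± 0.21, limma adjusted p = 0.0541), at 25.7 ± 4.02 CPM in the double lesion and 16.4 ± 5.61 CPM in Vav Cre (SD, n = 3 each). Under 4 of 23 alternatives Casp9 was called there. Against Vav Cre it was called under 2 of 23 in KDM6B OE and 1 of 23 in Tet2 KO. Diablo, of the same list, was called with the transgene over both Tet2 backgrounds under 2 of 22. Of 5 inhibitor of apoptosis genes, Birc5 fell and Birc3 rose in the double lesion over Vav Cre (14.9% of all genes were called). Birc5 encodes survivin, which also serves in cell division, and stood at 125 ± 23.9 CPM in the double lesion and 284 ± 65.1 CPM in Vav Cre (-1.18 ± 0.18, limma adjusted p = 0.00359). Birc3, an NF-kB target, stood at 58.0 ± 9.92 CPM in the double lesion and 40.4 ± 6.76 CPM in Vav Cre (0.51 ± 0.16, limma adjusted p = 0.0441). Birc5 was also lower with the transgene over both Tet2 backgrounds (-0.66 ± 0.12, limma adjusted p = 0.0152), where 4.35% of all genes were called.

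Of 10 tested genes of death receptor signalling, 1 rose and 1 fell in the double lesion over Vav Cre, close to the 14.9% of all genes called there. Cflar, whose product FLIP restrains caspase 8, stood at 93.8 ± 0.590 CPM in the double lesion and 69.5 ± 6.51 CPM in Vav Cre (0.43 ± 0.12, limma adjusted p = 0.0277). Mlkl, the executor of necroptosis, stood at 74.2 ± 5.27 CPM in the double lesion and 101 ± 5.85 CPM in Vav Cre (-0.44 ± 0.10, limma adjusted p = 0.0172). Both were also called with the transgene over both Tet2 backgrounds, where 4.35% of all genes were called. Cflar differed by 0.31 ± 0.08 (limma adjusted p = 0.0485) and Mlkl by -0.28 ± 0.07 (limma adjusted p = 0.0484).

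Among 8 genes of the outer membrane and cristae, the fusion gene Mfn2 rose (0.73 ± 0.22, limma adjusted p = 0.0421) and Mtch2, whose product is a receptor for BID, fell (-0.55 ± 0.15, limma adjusted p = 0.0272) in the double lesion over Vav Cre (14.9% of all genes were called). Mfn2 was also called with the transgene over both Tet2 backgrounds (0.63, limma adjusted p = 0.044), where 4.35% of all genes were called. Of 5 tested genes that act on MCL1 protein stability, 1 was called in the double lesion against Vav Cre, where 14.9% of all genes were. That was the ubiquitin ligase gene Huwe1, which fell (-0.36 ± 0.09, limma adjusted p = 0.0238). It stood at 133 ± 8.52 CPM in the double lesion and 172 ± 6.53 CPM in Vav Cre. All 5 had a negative difference in that comparison, with a median of -0.24, against 0.05 over all genes, of which 54.4% had a positive difference. The other 4 were not called. The list was not split by whether a gene lowers or raises MCL1 stability, so the shared direction gives no reading of that stability.

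Of 14 tested transcription factor genes known to act on Bcl2 family genes, 3 rose and none fell in the double lesion over Vav Cre, where 7.34% of all genes rose and 7.58% fell. Their median difference was 0.31, against 0.05 over all genes. Stat3, which acts on Mcl1 and Bcl2l1 in several cell types, stood at 325 ± 20.2 CPM in the double lesion and 192 ± 33.3 CPM in Vav Cre (0.77 ± 0.13, limma adjusted p = 0.00551). Srf (0.998 ± 0.27, limma adjusted p = 0.0279) and the NF-kB subunit gene Rela (0.67 ± 0.20, 0.0413) were the others. With the transgene over both Tet2 backgrounds, Atf4, Stat3 and Srf rose (0.55 ± 0.11, 0.43 ± 0.09 and 0.73 ± 0.19, limma adjusted p = 0.0215, 0.0245 and 0.0477). There 2.52% of all genes were called higher. No gene of this list was called in either single lesion against Vav Cre.

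Of the 11 genes called in the double lesion against Vav Cre in these lists, Birc5 and Stat3 were called under all 23 alternatives. Each of the other 9 lost its call without the library double lesion 1, and also with the compared groups alone in the fit. Bad held under 7 of 23, Birc3 under 9, and Mfn2 and Rela under 10. Huwe1 held under 16, Srf and Cflar under 17, and Mtch2 and Mlkl under 19. All 7 calls of these lists for the transgene over both Tet2 backgrounds were lost under at least 1 of 22 alternatives. Mlkl held under 7, Cflar under 8, Srf under 9 and Mfn2 under 10. Stat3 held under 16, Atf4 under 17 and Birc5 under 20.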

How the data were processed

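Poly(A) RNA of sorted LSK cells was sequenced after SMARTer amplification and Nextera tagmentation, per the labels' protocols, which do not mark strand. Per the submitters' processing notes, TopHat2 2.0.10, HTSeq 0.6.0 and edgeR 3.8.6 were used with mm10; the sources used here give neither the annotation nor the strand setting. The deposited table holds a signal value per gene, the read count divided by a scaled library size (CPM). All values gave back whole reads (100% within 1e-06), and every listed gene had at least 10 reads in sum. A single read was worth 0.0373 to 0.0463 CPM. Reads carry no molecular identifiers, so read numbers cover counting error only.

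The test was limma 3.58.1 (R 4.3.3, mean trend) on log2(CPM + 1), with 4 group means, 8 residual degrees of freedom and Benjamini-Hochberg adjustment over the genes tested; 2320 genes were not tested. The design had foreseen plain CPM, and its test was kept. Pooled effects average 2 contrasts of 3 against 3. Alternatives included edgeR 4.0.16 and DESeq2 1.42.0 on the recovered reads. The code was tested on simulated data. The members and lists were chosen with earlier results of these data known. Named list genes are those called (at most 5 per list), or the one with the smallest adjusted p; the 3 likest genes are given for each called member. Loci and lengths are from GENCODE M21 (GRCm38), and promoters from RefSeq (GRCm38.p6). Y chromosome genes averaged 58.2 to 67.5 CPM in Vav Cre 1, Tet2 KO 1, double lesion 1 and double lesion 3. They averaged at most 0.3545 CPM in the other libraries, all of KDM6B OE among them. Sex was thus unbalanced between groups, and a sex term was 1 alternative. Replicate numbers were taken to pair 2 groups where every same-numbered pair of deviations from the group means correlated over 0.1. That held for Tet2 KO and Vav Cre (r from 0.3 to 0.34) and for no other pair of groups.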

Additional observations from a re-analysis of the deposited data

How the results depend on the processing

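No difference of a single member that was called changed direction under the 23 alternatives. Mcl1 was called under all alternatives in the double lesion against Vav Cre (log2 0.79 to 0.99) and with the transgene over both Tet2 backgrounds (0.75 to 0.85). It was called under 22 of 23 in KDM6B OE against Vav Cre (0.74 to 0.93) and 18 of 23 in the double lesion against Tet2 KO (0.70 to 0.84). Leaving out any double lesion library, Tet2 KO 1 or Tet2 KO 2 ended that last call, so 0 to 1 members were called there. For the double lesion against Vav Cre (2 members), DESeq2, equal totals, a replicate block, array weights and a length and GC trend each called 4 members (Bcl2a1b under the trend at an adjusted p of 0.04999), and a fit of the compared groups alone called 1 (Mcl1). Leaving out 1 library gave 1 to 6, with 6 if Vav Cre 3 was left out and 1 if Vav Cre 1 or any double lesion library was. For KDM6B OE against Vav Cre (1 member), DESeq2 called 2, the replicate block 2, array weights 3 and the compared groups alone 0 (Mcl1 adjusted p = 0.0571). Leaving out 1 library gave 1 to 3, with 3 without Vav Cre 3. For the transgene over both backgrounds (2 members), no filter left 1, DESeq2, equal totals, the replicate block and array weights each called 3 (Bcl2l11 added), and leaving out 1 library gave 1 to 3. The remaining 3 comparisons of single groups or effects stayed at 0 members throughout, as did the interaction.

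Apart from Tet2 KO and Vav Cre, no 2 groups had r over 0.1 in every same-numbered pair: over all 18 pairs r ran from -0.149 to 0.388, 10 were over 0.1, and 8 of 12 libraries were closest to their own number, a hint of shared variation from the data alone. The replicate block added Pmaip1 and Bax in the double lesion against Vav Cre (adjusted p = 0.0366 and 0.0337) and Bcl2l11 in KDM6B OE against Vav Cre (0.0423) and for the transgene (0.0408); it changed no other member's call. Counts over all genes moved more. In KDM6B OE against Vav Cre 78 genes were called, against 22 with the compared groups alone, 284 with the block, 737 by DESeq2 (367 higher and 370 lower, against 68 and 10) and 972 with array weights. In the double lesion 1947 were called against Vav Cre (289 with the compared groups alone), 28 against Tet2 KO (9 without double lesion 2 to 173 with array weights) and 0 against KDM6B OE (up to 92 with array weights). In Tet2 KO against Vav Cre 4 were called (0 with the compared groups alone to 160 by DESeq2). The transgene over both backgrounds gave 568 (1867 with array weights), and Tet2 deletion 27 (2 without double lesion 1 or 2 to 375 with array weights). In the double lesion against Vav Cre, equal totals moved the median of all genes to 0.12 and the calls to 1285 higher and 763 lower, and a length and GC trend to 661 and 1316, against 958 and 989. Leaving out 1 library gave 304 (without double lesion 1) to 3585 in the double lesion, 22 (without KDM6B OE 1) to 1934 in KDM6B OE and 1 (without any double lesion library or KDM6B OE 2) to 307 in Tet2 KO, all against Vav Cre, and 94 (without KDM6B OE 2) to 2771 for the transgene; each highest count was without Vav Cre 3. Precision is limited by 3 libraries per group and, for Bcl2a1b, Bak1 and Pmaip1, by read numbers.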
